A study of Mus musculus with 7 samples.

Results

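The 9 genes described here encode ion transport proteins that the ubiquitin ligase NEDD4L is known to act on, and the regulators that are known to act on NEDD4L in turn. They were chosen by name: the epithelial sodium channel subunits Scnn1a, Scnn1b and Scnn1g, the potassium channel gene Kcnq1, the sodium-chloride cotransporter gene Slc12a3, the kinases Sgk1 and Sgk3, and the adaptors Ndfip1 and Ndfip2. They are 9 of 21883 protein-coding genes in RefSeq on the mm10 assembly, and 21436 of those have a usable start for comparison. For each gene, the peaks of every library were collected over its RefSeq span with 10 kb added on both sides, and a promoter peak was one that overlapped the transcription start site (TSS) ± 1 kb. The TSS is the outer 5′ end of the span unless another start is named.

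Chromatin accessibility was measured by ATAC-seq, in which the transposase Tn5 cuts open DNA, on 5000 freshly isolated hindlimb muscle stem cells (MuSCs) per library. Libraries of 4 Nedd4L-cKO mice (cKO) were compared with libraries of 3 Nedd4L-WT mice (WT). The Nedd4L-cKO mice carry Nedd4L fl/fl and Pax7 cre/+ alleles. The deletion arises in cells that express Pax7, and the authors state that it also extends to the differentiated myofibers. It leaves a transcript whose protein has no ligase activity. The labels of the control group say Nedd4L-WT, and its Cre and loxP status was not given in the sources used here. The mice were males aged 5 to 6 weeks, on a C57BL/6 background. Cells were sorted as ITGA7+ and negative for CD31, CD45, CD11b and SCA1. Between 14429374 and 20084685 tags per library were kept, giving 69302 to 79158 peaks, and WT replicate 3 alone was sequenced on lane 2. Each library pools many cells, so a peak open in fewer cells and a peak less open in each cell cannot be told apart.

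NEDD4L is a HECT-type E3 ligase whose WW domains bind PY motifs of membrane proteins, and ubiquitination by it leads to their removal from the cell surface. The epithelial sodium channel (ENaC), which carries sodium across the apical membrane of kidney tubule, lung and colon epithelium, is its best known target. The kinases SGK1 and SGK3 phosphorylate NEDD4L and so reduce its binding to ENaC, while NDFIP1 and NDFIP2 are membrane adaptors that recruit and activate ligases of the NEDD4 family. These steps act on proteins, whereas the values below describe the chromatin of the genes.

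The promoters of 6 of the 9 genes had a peak in all 7 libraries, beside 59.7% of all protein-coding genes. These were Scnn1a, Scnn1g, Sgk1, Sgk3, Ndfip1 and Ndfip2. Scnn1b and Slc12a3 had no promoter peak in any library, a state shared by 34.7% of protein-coding genes. Kcnq1 had a promoter peak in 3 of 4 cKO and 2 of 3 WT libraries. In the 9 windows the peaks merged into 82 regions, out of 95163 regions over the genome. Of the 82 regions, 47 were called in all 7 libraries (57.3%, beside 56% of all regions), 23 in 2 to 6 libraries and 12 in a single library (14.6%, beside 14.7% of all regions). Most of the 82 lay in gene bodies (60), with 7 at promoters, 6 in upstream flanks and 9 in downstream flanks.

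**Figure D1:**
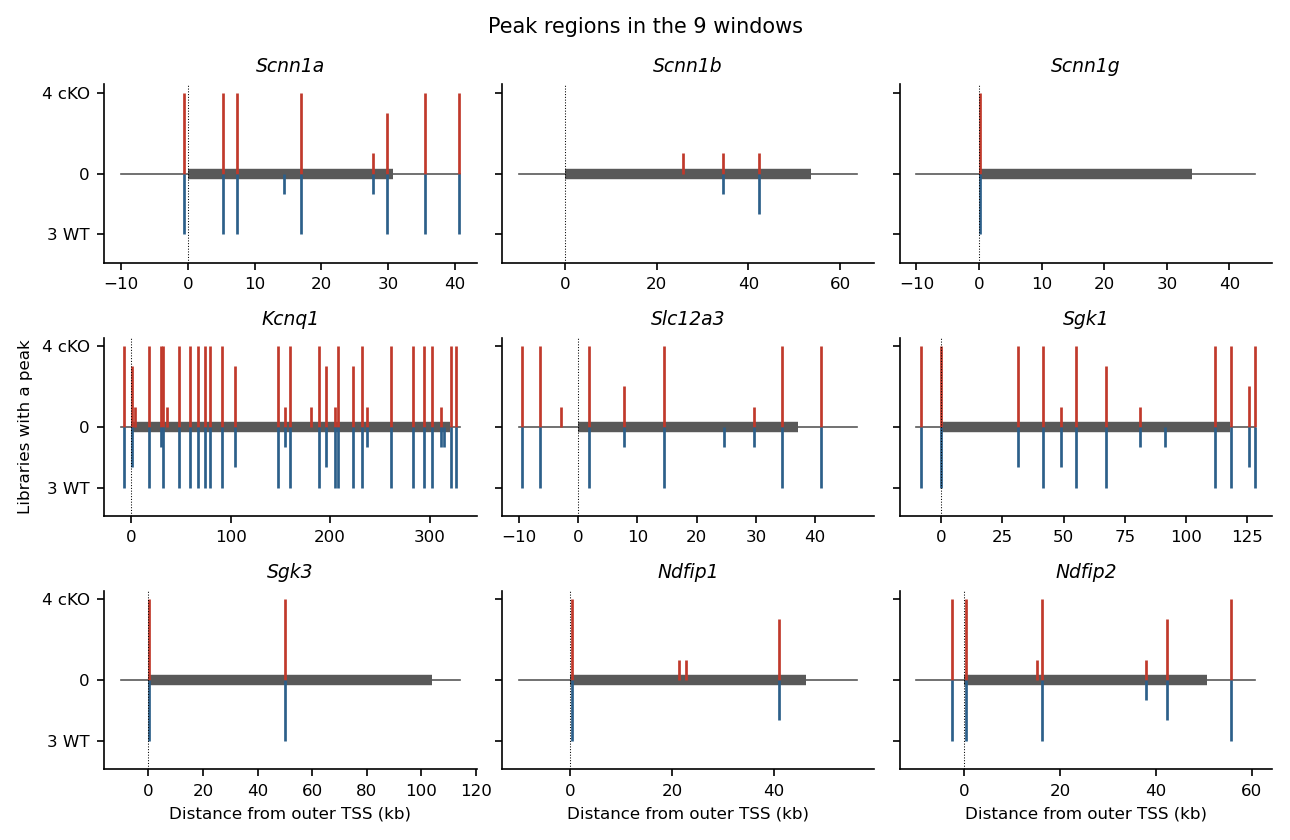
Peak regions of the 9 genes by distance of the region's centre from the outer TSS in kb (x axis, different scale in each panel). The thick bar is the gene span and the thin line the flanks of 10 kb; red lines upward give the number of cKO libraries (of 4) and blue lines downward the number of WT libraries (of 3) with a peak. Scnn1b has no region in all 7 libraries and Kcnq1 has 20.

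Heights are given as percentiles of 2 values that the peak caller reported, each ranked among all peaks of the same library. The pileup is the mean tag coverage over a peak, and the fold enrichment is the ratio of that coverage to the local background. Peak density differed between the windows. Scnn1a had 1.44 peaks per 10 kb of window and Slc12a3 1.28, above 94.5% and 90.8% of protein-coding genes. The starts of Ltbr and Tnfrsf1a also lie in the Scnn1a window, and that of Mir138-2 in the Slc12a3 window. These densities thus describe the window and not the named gene alone. Kcnq1 (0.781), Ndfip2 (0.727) and Sgk1 (0.674) also lay above the median of 0.461, while Ndfip1 (0.302), Scnn1g (0.185), Sgk3 (0.161) and Scnn1b (0.116) lay below it.

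The ENaC subunits form 1 channel but differed widely in their chromatin. The Scnn1a promoter, at chr6:125312858-125314661, was the most open of the outer promoters by pileup. Its pileup percentiles were 89.2, 91.9, 87.9 and 89.0 in cKO replicates 1 to 4 and 88.5, 89.5 and 92.0 in WT replicates 1 to 3. The groups overlapped, with the highest value in WT replicate 3 and the lowest in cKO replicate 3. By fold the Scnn1a promoter stood at percentiles 61.96, 64.49, 64.54 and 70.7 in cKO and 62.06, 68.86 and 65.81 in WT. This was below the Scnn1g promoter in every library except cKO replicate 2. The Scnn1a median by fold, 64.54, was below those of Scnn1g (82.04), Sgk3 (80.51), Sgk1 (79.67) and Ndfip1 (78.75). It was above that of Ndfip2 (64.02). The Scnn1a promoter region also covers the start of Ltbr, the lymphotoxin beta receptor gene, which runs the other way from a start 386 bp off. Its signal thus cannot be assigned to either gene. The highest region of the Scnn1a window, at chr6:125354288-125355527, lay beyond the 3′ end of Scnn1a, past the start of Tnfrsf1a, the gene of a tumor necrosis factor receptor.

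Scnn1g and Scnn1b lie side by side on chromosome 7 and encode the gamma and beta subunits. Scnn1g had 1 region in its whole window, at its promoter (chr7:121733910-121735077). Its pileup percentiles were 48.2, 27.8, 40.6 and 43.4 in the cKO libraries and 52.3, 37.8 and 41.7 in the WT libraries. The lowest and highest values fell in cKO replicate 2 and WT replicate 1, and the groups overlapped. By fold the region stood higher, at percentiles 86.6, 61.2, 77.4 and 83.9 in cKO and 89.9, 81.6 and 82.04 in WT. The local background that pileup and fold imply was 1.59 to 2.34 there, compared with 1.54 to 2.15 genome-wide. Scnn1b had no promoter peak, and the nearest region called in all 7 libraries lay 80329 bp from its start. Its window held 1 peak in each library except cKO replicate 2, which had none, and these fell into 3 gene-body regions. The region of Scnn1b found in most libraries, chr7:121906722-121907772, was called in cKO replicate 1, WT replicate 1 and WT replicate 3, at pileup percentiles of 4.03, 8.75 and 2.58.

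Upstream sequences of both genes are shown because one start had a peak in every library and its neighbor in none. They are the RefSeq bases on GRCm38.p6, plus strand, with CG dinucleotides in capitals, at chr7:121734229-121734419 for Scnn1g, which ends where the gene's outermost transcript begins, and at chr7:121864788-121865037 for Scnn1b.
Scnn1g: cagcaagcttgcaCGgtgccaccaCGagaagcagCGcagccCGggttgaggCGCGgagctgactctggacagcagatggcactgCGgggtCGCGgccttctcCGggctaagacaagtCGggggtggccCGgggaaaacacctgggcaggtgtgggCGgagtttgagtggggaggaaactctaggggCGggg
Scnn1b: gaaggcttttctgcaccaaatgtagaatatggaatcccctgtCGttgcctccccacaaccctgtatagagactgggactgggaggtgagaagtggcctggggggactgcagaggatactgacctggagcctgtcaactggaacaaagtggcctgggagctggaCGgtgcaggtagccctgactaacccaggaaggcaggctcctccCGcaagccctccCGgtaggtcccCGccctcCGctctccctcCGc
Over the 250 bases before the RefSeq start, the observed over expected ratio of CG dinucleotides was 0.628 for Scnn1g, above that of 68.0% of 32851 promoters, and 0.303 for Scnn1b, above 43.0%. The median of all promoters was 0.373. The letters GGGCGG, known as a GC box and searched on both strands, occurred 2 times before Scnn1g and 1 time before Scnn1b, and 32.7% of all promoters hold them. TATAAA was not among these letters for either gene, nor was AGAACA, the core letters of a glucocorticoid response element.

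Kcnq1 encodes the pore subunit of a voltage-gated potassium channel that is known from heart and inner ear. Its promoter region (chr7:143106747-143108662) had the lowest pileup percentile of the called promoters in each library where it was called. The pileup percentile was 0.462 in cKO replicate 1, 13.6 in cKO replicate 3, 32.5 in cKO replicate 4, 27.6 in WT replicate 1 and 27.6 in WT replicate 3. No peak was called there in cKO replicate 2 and WT replicate 2. In the 3 cKO libraries with a peak the fold percentiles were 6.89, 18.3 and 35.3. In the 2 WT libraries with a peak they were 43.8 and 59.8. The called values did not overlap, with cKO lower. How often other regions called in as few libraries separate in this way was not computed. The region was not tested, since 2 libraries gave no value. The body of the gene was rich in peaks: of 33 regions in the window, 20 were called in all 7 libraries. The highest of them by pileup was chr7:143173441-143175258, inside the gene. Its percentiles were 61.8, 71.0, 92.6 and 88.4 in cKO and 89.4, 82.7 and 74.2 in WT, so that the cKO values ran both below and above the WT values. Another region, chr7:143294681-143297038, covers the start of Kcnq1ot1, the imprinted antisense RNA transcribed from within Kcnq1. Its pileup percentiles lay between 75.8 and 85.0 over all libraries, far above those of the Kcnq1 start itself.

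Over the 20 shared Kcnq1 regions, the median pileup percentile differed between the libraries. It was 36.2, 28.8, 50.8 and 56.6 in cKO replicates 1 to 4 and 58.5, 46.9 and 40.8 in WT replicates 1 to 3. The 3 libraries with the lowest medians, cKO replicates 1 and 2 and WT replicate 3, are also the 3 with the fewest kept tags (14429374 to 15084838, against 17121492 to 20084685 in the others). In 9 of the 20 regions (45%) these 3 libraries were all below the other 4, compared with 9.66% of all regions called in every library and 1 of 27 regions (3.7%) in the other 8 windows. By fold the count was 4 of 20 (20%), compared with 5.34% of all shared regions. The pattern was seen after the values were known, and the part that depth has in it was not tested. Both genotypes are present among the shallow libraries, yet 2 of the 3 are cKO. Of these 3, WT replicate 3 had the fewest kept tags and the highest median.

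**Figure D2:**
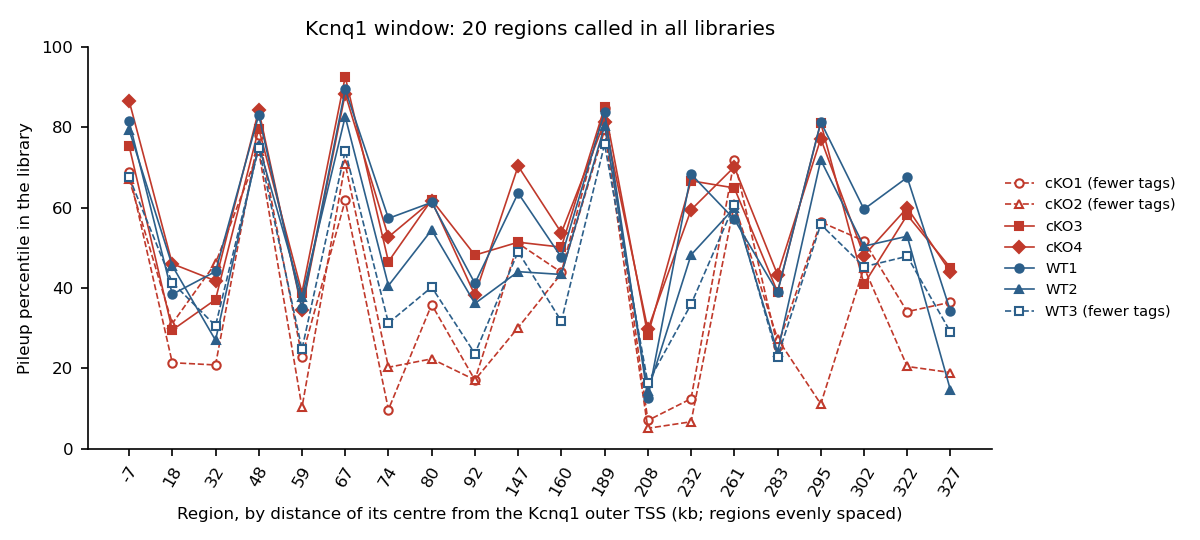
Pileup percentile (y axis) of each of the 20 Kcnq1 regions called in all libraries, ordered by distance from the outer Kcnq1 TSS in kb (x axis, evenly spaced); red lines are cKO and blue lines WT libraries. Open markers and dashed lines are the 3 libraries with the fewest tags, which are all below the other 4 in 9 of the 20 regions.

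SLC12A3 is the thiazide-sensitive sodium-chloride cotransporter of the distal convoluted tubule. Its promoter had no peak in any library. The nearest region called in every library, chr8:94330424-94331372, began 1315 bp inside the gene, and its pileup percentiles were 40.4, 48.7, 34.5 and 53.9 in cKO and 38.5, 34.9 and 27.0 in WT. The groups overlapped, with the lowest cKO value (replicate 3) below the highest WT value (replicate 1). With the promoter window widened to 2.5 kb this region was counted, and 7 of 9 genes then had a promoter peak in all libraries. The highest region of the window by pileup was upstream, at chr8:94321808-94323413, within 1 kb of the start of Mir138-2, a microRNA gene. Its percentiles were 74.3, 77.7, 83.8 and 87.3 in cKO and 83, 76.9 and 77.6 in WT.

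The bases before the Slc12a3 start are shown as an example of a start with no peak in any library, at chr8:94328958-94329108 (GRCm38.p6, plus strand, CG in capitals).
Slc12a3: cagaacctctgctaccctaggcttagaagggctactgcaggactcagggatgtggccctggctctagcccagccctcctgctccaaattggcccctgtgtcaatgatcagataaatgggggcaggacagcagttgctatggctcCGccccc
The ratio of CG dinucleotides over the full 250 bases was 0.134, above that of 20.0% of promoters. On both strands of these bases GGGCGG occurred 2 times, as often as before Scnn1g, and CCAAT 1 time. These letters are held by 32.7% and 33.8% of all promoters. A TATAAA match began 32 bases before the RefSeq start at position 94329208, beyond the stretch shown and inside the outermost transcript, and 12.4% of all promoters hold those letters on either strand.

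Sgk1, a kinase gene that glucocorticoids and mineralocorticoids are known to induce, has 6 starts in the RefSeq promoter table. Peaks within 1 kb were found in all 7 libraries at 4 of them and in no library at the other two, at positions 21978672 and 21986104 of chromosome 10. The outer start was covered by chr10:21881795-21882908, with pileup percentiles of 40.6, 48.6, 58.4 and 57.4 in cKO and 48.5, 39.0 and 53.1 in WT. By fold the percentiles were 72.8, 88.1, 92.9 and 81.2 in cKO and 73.0, 59.3 and 79.7 in WT. The groups overlapped, with cKO replicate 1 below WT replicates 1 and 3. The lncRNA gene Gm46215 starts 94 bp away on the other strand and shares this region.

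The 3 inner starts shared 1 wide region, chr10:21992642-21995472, which covers 2 of them and begins 419 bp past the other. It was the highest by pileup of all regions described here. Its pileup percentiles were 98.6, 99.1, 99.0 and 99.3 in cKO and 99.0, 98.5 and 98.8 in WT. By fold the same region was among the lowest, at percentiles 9.79, 7.09, 11.0 and 9.75 in cKO and 8.07, 6.10 and 7.56 in WT. The pileup was 61.0 to 75.5 and the fold only 2.57 to 2.76 over the libraries. The background that these values imply was 21.5 to 28.3, far above the genome-wide level given for Scnn1g, since the caller divides by the higher of the genome-wide background and that of the surrounding 10 kb. A second Sgk1 region beyond the 3′ end, chr10:22000088-22001173, showed the same split, with pileup percentiles of 76.2 to 78.9 and fold percentiles of 0.658 to 2.17.

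**Figure D3:**
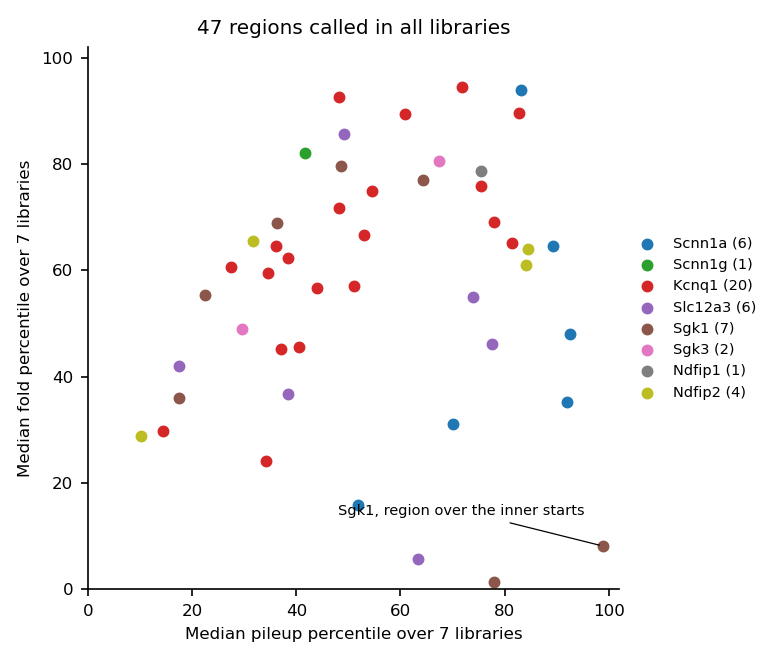
Median percentile over 7 libraries by pileup (x axis) and by fold (y axis) of the 47 regions called in all libraries, 1 point per region, colored by gene with the number of regions in brackets. The Sgk1 region over the inner starts lies at the far right and bottom, at a median pileup percentile of 99.0 and a median fold percentile of 8.07.

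The bases before 3 Sgk1 starts are shown for comparison, the outer start with a peak, a start with no peak and an inner start with a peak, at chr10:21881934-21882183, chr10:21978422-21978671 and chr10:21993640-21993889 (GRCm38.p6, plus strand, CG in capitals).
Sgk1 outer start: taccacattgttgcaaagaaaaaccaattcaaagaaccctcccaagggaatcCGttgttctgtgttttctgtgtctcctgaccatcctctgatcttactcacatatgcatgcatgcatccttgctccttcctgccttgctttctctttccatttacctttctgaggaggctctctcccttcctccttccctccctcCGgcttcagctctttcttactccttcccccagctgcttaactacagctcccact
Sgk1 start with no peak: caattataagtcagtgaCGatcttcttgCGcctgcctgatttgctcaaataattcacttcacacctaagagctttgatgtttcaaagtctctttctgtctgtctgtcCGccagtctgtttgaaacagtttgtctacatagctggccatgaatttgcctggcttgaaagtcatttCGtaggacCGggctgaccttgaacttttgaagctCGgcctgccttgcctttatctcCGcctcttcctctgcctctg
Sgk1 inner start: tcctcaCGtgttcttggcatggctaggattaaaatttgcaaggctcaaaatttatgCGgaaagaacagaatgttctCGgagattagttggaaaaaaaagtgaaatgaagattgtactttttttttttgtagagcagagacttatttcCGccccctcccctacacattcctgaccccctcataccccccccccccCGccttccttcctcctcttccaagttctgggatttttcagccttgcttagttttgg
The CG ratios of the 6 starts ran from 0.176 at the outer start to 0.71 at the innermost, and the start with no peak that is shown had 0.533, above 61.6% of promoters. AGAACA occurred 3 times before the inner start shown, 1 time before the outer start and not before the start with no peak. Of the other inner starts, which also had a peak within 1 kb in all libraries, it occurred 1 time before position 21992223 and not before 21994666. It is held by 16.1% of all promoters. TGACGTCA, the cAMP response element, was not found before any of the 10 member starts in the table, and 1.55% of promoters hold it.

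Sgk3, whose kinase is recruited to endosomes by its PX domain, had 2 regions in a gene of 104 kb. The promoter (chr1:9797505-9799285) had pileup percentiles of 62.2, 70.1, 67.2 and 72.5 in cKO and 71.3, 67.4 and 66.1 in WT. The other region, in the gene body, ranged from 15.99 to 49.66 over the libraries.

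Both adaptor genes had a promoter peak in every library. The Ndfip1 promoter had pileup percentiles of 69.8, 75.6, 75.5 and 75.6 in cKO and 78.2, 71.1 and 73.3 in WT. It was the only region of that gene called in all libraries. The Ndfip2 promoter (chr14:105258380-105259400) had pileup percentiles of 84.6, 85.5, 81.2 and 85.7 in cKO and 83.4, 84.8 and 84.3 in WT, above those of Ndfip1 in every library. By fold the Ndfip2 promoter stood at 65.1, 63.1, 47.7 and 52.4 in cKO and 65.4, 64.0 and 65.0 in WT, with cKO replicates 3 and 4 below the other libraries. The Ndfip1 promoter stood at 65.5, 79.1, 79.6 and 79.6 by fold in cKO and 78.8, 72.4 and 78.3 in WT. The order of the adaptor promoters was thus reversed by fold in every library. A second Ndfip2 region upstream of the start, chr14:105255463-105256430, had pileup percentiles of 79.1 to 89.6.

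The bases before the Ndfip2 start, an adaptor promoter open in every library, were read at chr14:105258373-105258590 (GRCm38.p6, plus strand, CG in capitals).
Ndfip2: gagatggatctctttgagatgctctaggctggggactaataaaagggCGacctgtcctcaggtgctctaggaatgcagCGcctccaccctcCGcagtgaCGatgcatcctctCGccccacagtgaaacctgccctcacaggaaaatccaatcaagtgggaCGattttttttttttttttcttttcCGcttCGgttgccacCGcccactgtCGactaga
Its CG ratio over 250 bases was 0.628, equal to that of Scnn1g. It held 1 GGGCGG match and 1 match to CCAAT, letters found in 33.8% of promoters. Sequences of 5 of the 9 genes were in the RefSeq promoter table, and the others are not shown.

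**Figure D4:**
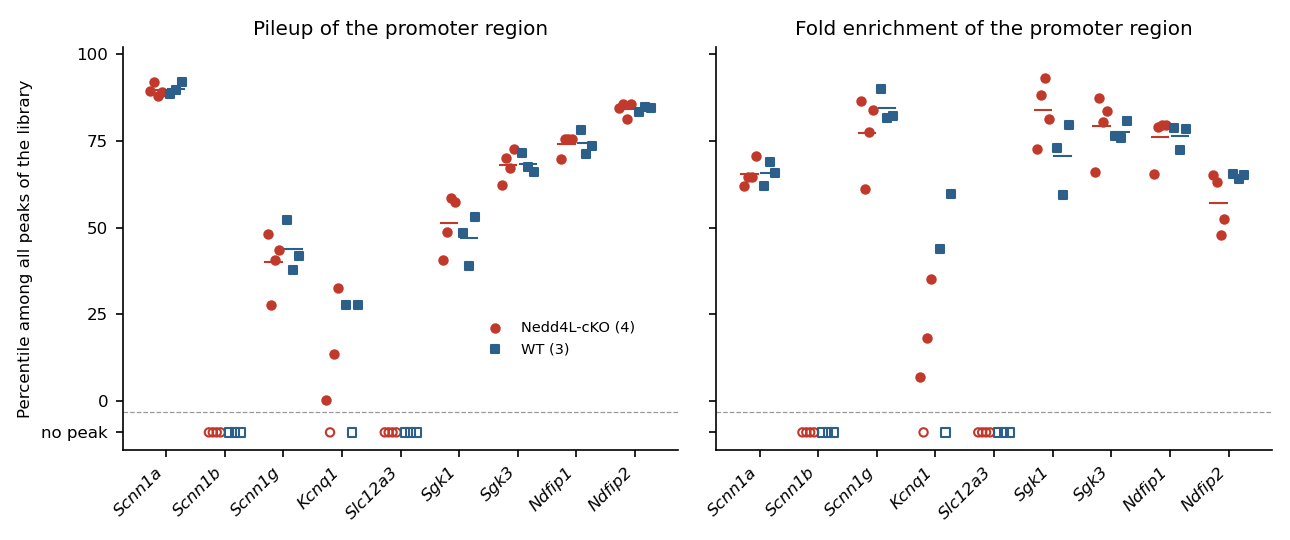
Percentile of the outer promoter region among all peaks of a library by pileup (left) and by fold (right), 1 filled point per library, with red circles for 4 cKO and blue squares for 3 WT libraries and a line at the group mean where all libraries of a group have a peak. Open points below the dashed line have no promoter peak. Scnn1a is highest by pileup, and points of both genotypes overlap at the 6 promoters with a peak in all libraries. At Kcnq1, with 3 cKO and 2 WT points, they overlap by pileup but not by fold. This was not tested, and how often other such regions separate was not computed.

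The genotypes were then compared over the 9 windows together. The libraries had 60, 61, 59 and 65 peaks in cKO and 64, 58 and 63 in WT, or 61.2 ± 2.63 (SD, n = 4) against 61.7 ± 3.21 (SD, n = 3). The mean of cKO was lower, by less than the SD of either group (difference -0.417, exact permutation test over 35 splits, two-sided, p = 0.886, where the smallest possible p is 0.0286). Among the lane 1 libraries cKO was higher by 0.25 peaks (exact permutation p = 1 over 15 splits). Peaks covered 53.8, 51.6, 56.8 and 62.8 kb of the windows in cKO and 60, 52.8 and 58.3 kb in WT. The means were 56.3 ± 4.85 kb (SD, n = 4) and 57.0 ± 3.79 kb (SD, n = 3), a difference of -0.756 kb (exact permutation p = 0.857, two-sided). Within lane 1 it was -0.11 kb.

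For no member did the number of peaks separate the genotypes: 0 of 9 had more peaks in every cKO than in every WT library, and 0 had fewer, beside 0.168% and 0.219% of protein-coding genes. Without WT replicate 1 the count became 1. The covered length separated them for 1 of the 9 genes, Scnn1g, and was examined after the values were seen. Peaks covered 1.10, 0.871, 0.931 and 0.880 kb at Scnn1g in cKO and 0.742, 0.753 and 0.799 kb in WT, so all 4 cKO values were longer. Over all protein-coding genes, 1.68% were longer in every cKO library and 1.17% shorter, and 0 of the 9 genes were shorter. The count was 2 without cKO replicate 4, WT replicate 1 or WT replicate 3, and 0 with peaks of -log10 q of at least 5.

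No member region was called in every library of one genotype and none of the other: 0 were called in all cKO and no WT libraries (0.0694% of all regions) and 0 in all WT and no cKO libraries (0.082%). The count was 1 without cKO replicate 4 or without WT replicate 1. Among the 47 regions called in all libraries, fold percentiles did not overlap between the genotypes in 2, both lower in cKO (1.88% of all shared regions), and in 0 higher in cKO (3.08%). Both lay in the Kcnq1 window. At chr7:143179971-143181526 the fold percentiles were 25.4, 39.7, 45.5 and 38.1 in cKO and 48.8, 55.0 and 49.4 in WT. At chr7:143428022-143429371, in the downstream flank, they were 55.3, 42.6, 64.2 and 66.6 in cKO and 73.9, 67.4 and 68.9 in WT. By pileup 2 regions were higher in cKO (1.85% of all shared regions) and 0 lower (1.37%). The region beyond Scnn1a at chr6:125354288-125355527 had pileup percentiles of 94.0, 95.8, 92.6 and 93.4 in cKO and 91.3, 91.3 and 92.3 in WT. The Kcnq1 region chr7:143367418-143368653 had 71.8, 60.9, 64.9 and 70.2 in cKO and 57.1, 59.95 and 60.8 in WT. In both, the nearest cKO and WT values differed by little.

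Shifts between the genotypes were tested with limma on the rank of each region within its library, turned into normal scores, over all 53245 regions called in all libraries. With Benjamini-Hochberg adjustment, 0 of 47 member regions passed by fold and 0 by pileup, as did 0% of all regions by either measure. An unadjusted p under 0.05 was found for 3 of 47 regions by fold, beside 3.98% of all regions, and for 1 of 47 by pileup, beside 2.71%. By fold 19 regions were higher and 28 lower in cKO, with a median shift of -0.0378 and a range from -0.876 to 0.749 normal-score units. By pileup 26 were higher and 21 lower, with a median of 0.0221 and a range from -0.618 to 0.407. Every adjusted p from limma was 1.

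At the outer promoters, the shift by fold (cKO minus WT ± SE) was -0.01 ± 0.16 for Scnn1a, -0.28 ± 0.24 for Scnn1g, 0.52 ± 0.27 for Sgk1, 0.09 ± 0.21 for Sgk3, -0.02 ± 0.19 for Ndfip1 and -0.24 ± 0.19 for Ndfip2. By pileup these shifts were -0.03 ± 0.11, -0.14 ± 0.19, 0.13 ± 0.15, -0.01 ± 0.10, -0.01 ± 0.10 and 0.003 ± 0.087 in the same order. The Sgk1 region over the inner starts shifted by 0.10 ± 0.16 by fold and 0.08 ± 0.09 by pileup. Each shift was within 2 SE of zero. The 2 regions of lowest unadjusted p in each direction by fold all lay in the Kcnq1 window, at chr7:143367418-143368653 (0.65 ± 0.26 by fold), chr7:143433114-143434249 (0.75 ± 0.31 by fold), chr7:143123863-143125178 (-0.45 ± 0.18 by fold) and chr7:143179971-143181526 (-0.41 ± 0.19 by fold). By pileup the 2 in each direction were the Slc12a3 region nearest the start (0.37 ± 0.15), chr7:143367418-143368653 (0.23 ± 0.11), chr7:143123863-143125178 (-0.35 ± 0.15) and the Sgk1 region chr10:21922898-21924699 (-0.14 ± 0.10).

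**Figure D5:**
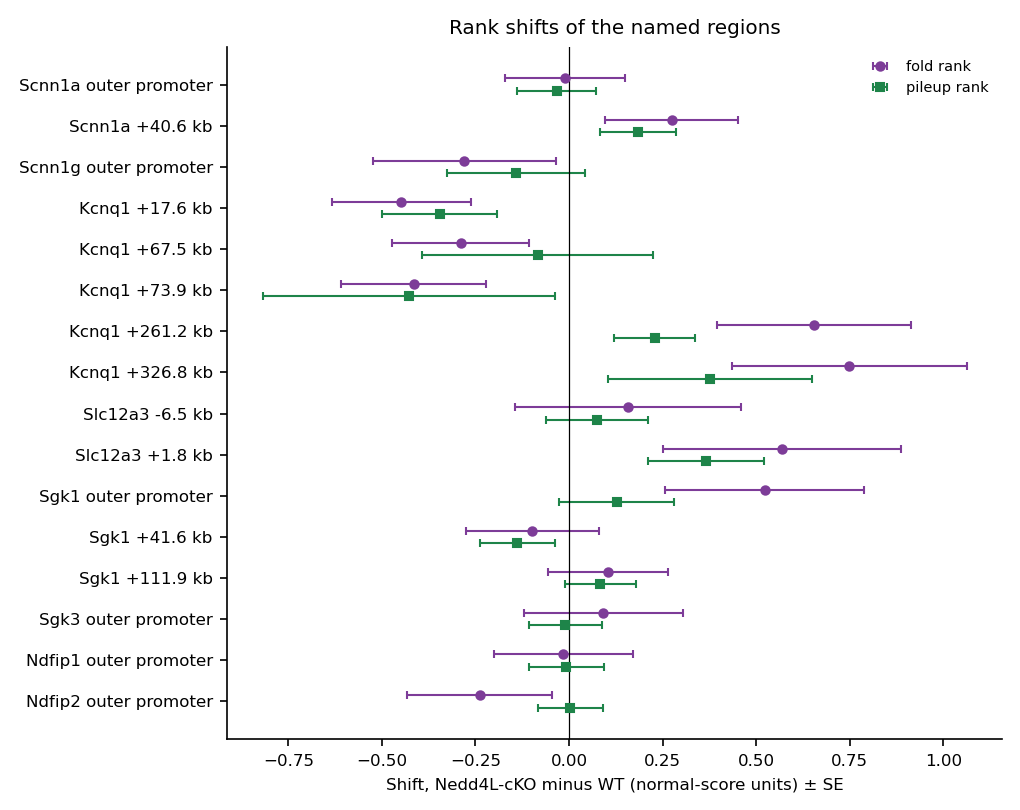
Shift in within-library rank between the genotypes (x axis, cKO minus WT in normal-score units, error bars are the SE from limma) for the outer promoters and the named regions called in all libraries, labelled by gene and by the distance of the region from the outer TSS. Purple circles are fold ranks and green squares pileup ranks; every adjusted p is 1.

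Other genes of the pathway gave a background of the same kind. Of 12 further channels and transporters known as NEDD4L targets, 8 had a promoter peak in all 7 libraries, beside 59.7% of all protein-coding genes. Among them was Scn4a, the skeletal muscle sodium channel gene, at a median pileup percentile of 50.1. No promoter peak was found at Scn10a, Slc12a1 or Cftr, and Scn9a had one in 1 WT library. Of 22 further regulators, 18 had a promoter peak in all libraries, beside the same 59.7%. These included Nr3c2, the mineralocorticoid receptor gene (median percentile 95.2), Nr3c1, the glucocorticoid receptor gene (44.1), Wnk1 (91.3) and Usp2, a deubiquitinase gene (95.7). Pdpk1, Furin and Nedd4l had none at the outer end of their spans and Prss8 had one in 1 library. By limma, 0 of the 8 and 0 of the 18 promoter regions passed in either direction by fold or pileup.

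The labelled cell type was read from promoter calls. All 8 MuSC markers, including Pax7, Myf5 and Cdh15, had a promoter peak in every library. Of 10 markers of epithelium and kidney tubule, where ENaC and SLC12A3 are known to act, 7 had a promoter peak in all libraries (70%, beside the 59.7% of all protein-coding genes). Their median pileup percentiles ran from 10.6 for Cdh1 through 25.8 for Epcam and 66.3 for Krt8 to 80.5 for Pvalb. Krt18 had a peak in 1 library, and Cdh16 and Umod in none. Ptprc, Itgam and Cd3e (immune), Pecam1 and Cdh5 (endothelial) and Pdgfra and Ly6a (mesenchymal) had none in any library. Kdr had one in all, as did Acta1 and Myh4 of the muscle fibre list, and Ckm had one in 5 libraries. No region of these lists passed limma after adjustment (0 by fold and 0 by pileup). The lowest unadjusted p-values by fold were those of Krt8 (0.57 ± 0.19) and Epcam (0.63 ± 0.23). These were the 2 of 7 tested epithelial and kidney tubule promoters with an unadjusted limma p under 0.05 by fold, beside 3.98% of all shared regions. By pileup their shifts were 0.10 ± 0.12 and -0.02 ± 0.16.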

How the data were processed

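ATAC-seq reads of 7 libraries were trimmed by the authors with Trimmomatic 0.39, aligned to mm10 with BWA 0.7.17, filtered by mapping quality and freed of duplicates with Picard 2.26.3. Peaks were called by the authors in each library alone, without a control. The file headers name MACS2 2.2.7.1 in broad mode, with a shift of -100, an extension of 200, and q cutoffs of 0.1 (broad) and 0.05 (narrow). The pileup deposited by the authors is a signal, a coverage with no depth scaling. Fold enrichment was deposited as a ratio to background, and the deposited p-value and q-value are given as -log10. The score deposited by the authors in the broad lists was not used.

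The 2 mitochondrial peaks per library were left out. The peaks of all libraries were merged into regions by an overlap of 1 bp, and the highest peak of a library stood for its region. Gene spans came from RefSeq (GRCm38.p6). Strands came from its promoter table, or otherwise from GENCODE by symbol and chromosome (Scnn1a, Kcnq1, Sgk3 and Ndfip1). GRCm39 coordinates were not used. Region ranks were tested with limma 3.58.1 (R 4.3.3) over all regions, after a check on simulated data, and totals by exact permutation in Python 3.11.15.

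All 9 members are named, with their promoter regions, the highest region by median pileup percentile in each window, and the 2 shared regions of lowest p in each direction by fold and by pileup. Among regions of a window, those called in the most libraries were ranked. Members and lists were chosen with earlier results of these data known. Some genes of the channel list are not reported here. As pileup is not scaled to depth, only ranks within a library were compared. Alternatives were stricter or equal numbers of peaks, other windows, other rankings and models, and leaving out each library.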

Additional observations from a re-analysis of the deposited data

Results flagged for a closer look

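In the group of 4 cKO libraries, 34 measures of the 9 genes were searched for a library far from the other 3 by Dixon's ratio, and 4 measures held one. Chance gives about 1 in 20 groups for continuous normal values, a rate that does not apply to peak counts. The 3 WT libraries are too few for the rule. Peaks covered 6.382 kb of the Scnn1a window in cKO replicate 4, against 6.074 to 6.115 kb in the other cKO libraries and 6.345 to 7.148 kb in WT. The Scnn1b window held 0 peaks in cKO replicate 2 and 1 in every other library. Its ratio was 1, as it must be when a single count differs from equal others. The Ndfip1 promoter stood at pileup percentile 69.84 in cKO replicate 1 against 75.5 to 75.6 in the other cKO libraries, and at fold percentile 65.51 against 79.1 to 79.6. The WT libraries ran from 71.1 to 78.2 by pileup and from 72.4 to 78.8 by fold. These extremes fell in 3 different libraries.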

How the results depend on the processing

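The count of member regions past the adjusted threshold was 0 by fold and by pileup with a depth covariate. The same held for eBayes with trend and robust settings, percentiles in place of normal scores and mean in place of highest peaks. It was also 0 on autosomes alone and with each library left out. Other windows could not change the count, since no region called in all libraries passed anywhere in the genome. The number of promoters with a peak in all libraries was 4 with peaks of -log10 q of at least 5 and 7 with a window of 2.5 kb, and 6 in every other setting. The difference in peaks (-0.417) was 0.1667 with equal numbers of peaks, -3.75 with peaks of -log10 q of at least 5 and -3.083 with peaks that hold a narrow peak, and ran from -2.25 to 0.75 when each library was left out. The difference in covered length (-0.756 kb) was -2.998 kb with the stricter q and ran from -2.934 to 0.793 kb with each library left out, regions that separated the genotypes from 0 to 1, and members whose peak numbers did not overlap from 0 to 1. Members whose covered lengths did not overlap ran from 1 to 2, and were 2 with equal numbers of peaks and 0 with stricter peaks, with gene spans alone and with 50 kb flanks. The cause of these changes was not tested.

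Promoter shifts near zero changed sign: Scnn1a by pileup was 0.001907 with a depth covariate, and with each library left out Scnn1a ran from -0.06062 to 0.04188 by fold and -0.08625 to 0.03141 by pileup, Sgk3 from -0.01986 to 0.2442 and -0.0465 to 0.03825, Ndfip1 from -0.08636 to 0.09244 and -0.05811 to 0.06082, and Ndfip2 by pileup from -0.01897 to 0.0391. The Scnn1g, Sgk1 and Ndfip2 shifts by fold kept their sign in every setting, though not their size: Scnn1g was -0.09858 by fold without cKO replicate 2 and -0.01026 by pileup without WT replicate 1, and Sgk1 was 0.3427 and 0.008845 without WT replicate 2.

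The replicate numbers in the titles are shared by both genotypes. Same-numbered libraries deviated from their group means with correlations of -0.123, 0.033 and -0.122, within the -0.151 to 0.154 of differently numbered libraries. Whether a shared number marks shared handling is not stated, and these correlations cannot decide it. With these numbers as a replicate block the differences were -1.667 peaks (exact sign-flip permutation p = 0.5) and -2.934 kb (exact sign-flip permutation p = 0.25, the smallest that 3 pairs allow, so neither could pass), 0 regions passed by either measure, and the Ndfip1 shift by pileup was 0.00285. Lack of a call does not show closed chromatin.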
